A study of Rattus norvegicus with 34 samples.

Results

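The rat major histocompatibility complex, called RT1, was examined in sperm DNA as all 5000 windows of 1 kb between 1 and 6 Mb of chromosome 20 (Rnor_6.0, positions counted from 1), taken to hold the RT1 complex and its border. They are 5000 of the 2782040 windows measured, and the other 51206 windows of chromosome 20 served as the comparison. The major histocompatibility complex is a dense gene cluster of vertebrates. Its class I and class II genes encode the cell surface proteins that present peptides to T cells, and the class III genes between them include complement and cytokine genes. These genes lie in duplicated blocks and differ between individuals and strains, more than most of the genome. Olfactory receptor genes lie beside and among RT1-M genes at an end of the rat complex. In RefSeq's GRCr8 annotation chromosome 20 holds 67 gene symbols starting with RT1-, and other chromosomes were not searched. Among the 67 are 17 RT1-CE and 19 RT1-M class I symbols and all 10 listed class II genes, and 19 are pseudogenes. GRCr8 is another build than that of the counts, so the genes are named here only for orientation. No window below is assigned to a gene, and no sequence of the windows is shown, since a genome of their build was not used here.

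Sperm pools of 3 groups were compared, all from outbred Sprague Dawley rats. The first, F1 ifosfamide, held 6 pools of sons of males given ifosfamide, an alkylating chemotherapy drug, at 8.5 mg/kg by intraperitoneal injection on days 26, 29 and 32 of age, during puberty. F2 ifosfamide held 6 pools of grandsons of these founders, bred within the lineage. F1 control held 6 pools of sons of males given 1.1 mL/kg phosphate buffered saline on the same days of age. Only the founders were injected. An F1 pool combined 3 to 4 males and an F2 ifosfamide pool 8 to 9 males, and the lineages went back to 5 ifosfamide and 3 control founders. The labels list 43 F2 ifosfamide males, and 6 pools of different males would take at least 48, so whether males were shared between F2 pools is not known. Pools of 1 group can share fathers, nothing in the labels ties a pool to a litter, and p-values measure the spread between these pools. Differences between the founders themselves cannot be told apart from the treatment. F2 pools are set against F1 controls or against F1 ifosfamide pools. Against F1 controls, generation, pool size and treatment of the founders cannot be told apart. Against F1 ifosfamide pools the founders are shared, and generation and pool size cannot be told apart. F2 control libraries are labelled in the series but were not used here. The age of the males at collection is not given in the sources used here, and window counts offer no marker of the labelled cell type.

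Methylated DNA was pulled down with an antibody against methylated cytosine and sequenced (MeDIP-seq), so read density rises with methylation, with the number of methylatable sites and with copy number. Signal is given as CPM (counts scaled to a common library size) per 1 kb window, on library sizes scaled by the trimmed mean of M values (TMM). Total counts ran from 25531658 to 39440265 in F1 ifosfamide, from 27424144 to 36309987 in F2 ifosfamide and from 23336048 to 34051679 in F1 control libraries. Counts of 3 in a window corresponded to 0.0758 to 0.128 CPM, depending on the library, which is about the lowest signal that can be told from 0, for counting error only. Pool 5 of F1 ifosfamide stood apart in the region, and values without it are given beside some of those it moved.

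Control sperm had close to the same mean MeDIP signal over the RT1 region and the rest of the chromosome, but it was spread less evenly in the region. The region averaged 0.441 ± 0.00536 CPM per window and the rest 0.440 ± 0.00604 CPM (SD, n = 6 pools). Their log2 ratio was 0.0063 (SE 0.0072, exact two-sided sign-flip test over pools, p = 0.406). The region held more windows at both ends of the scale. Windows below 0.1 CPM were 28.5% of the region and 21.4% of the rest, windows of 1 to 4 CPM were 11.7% and 9.18%, and those of 0.1 to 0.5 CPM were 41.3% and 49.5%. When only windows with a count in every library were kept, the region stood 0.15 higher on the log2 scale (exact sign-flip p = 0.03125, the smallest 6 pools can give). That filter drops windows with a 0, which were a larger share of the region. With near equal means over all windows, the direction was set by the filter, and the test over pools cannot weigh it.

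The signal was lowest at the region's start and highest at its end. In F1 control pools the 5 successive segments of 1 Mb carried 0.275, 0.335, 0.426, 0.559 and 0.613 CPM per window, so the last segment held more than the chromosome's remainder and the first held less. Bins of 100 kb varied more sharply. The bin at 5600001 to 5700000 reached 0.992 ± 0.0269 CPM, rank 3 of 563 bins on the chromosome. The next in the region was the bin at 4500001 to 4600000, with 0.836 ± 0.0528 CPM. At the low end, the bin at 1400001 to 1500000 had no count in any library, and the one at 1300001 to 1400000 had 0.0777 ± 0.0121 CPM. Over the same segments F1 ifosfamide pools had 0.276, 0.343, 0.423, 0.579 and 0.602 CPM (0.278, 0.340, 0.411, 0.563 and 0.579 CPM without pool 5), and F2 ifosfamide pools had 0.281, 0.341, 0.434, 0.559 and 0.607 CPM.

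**Figure D1:**
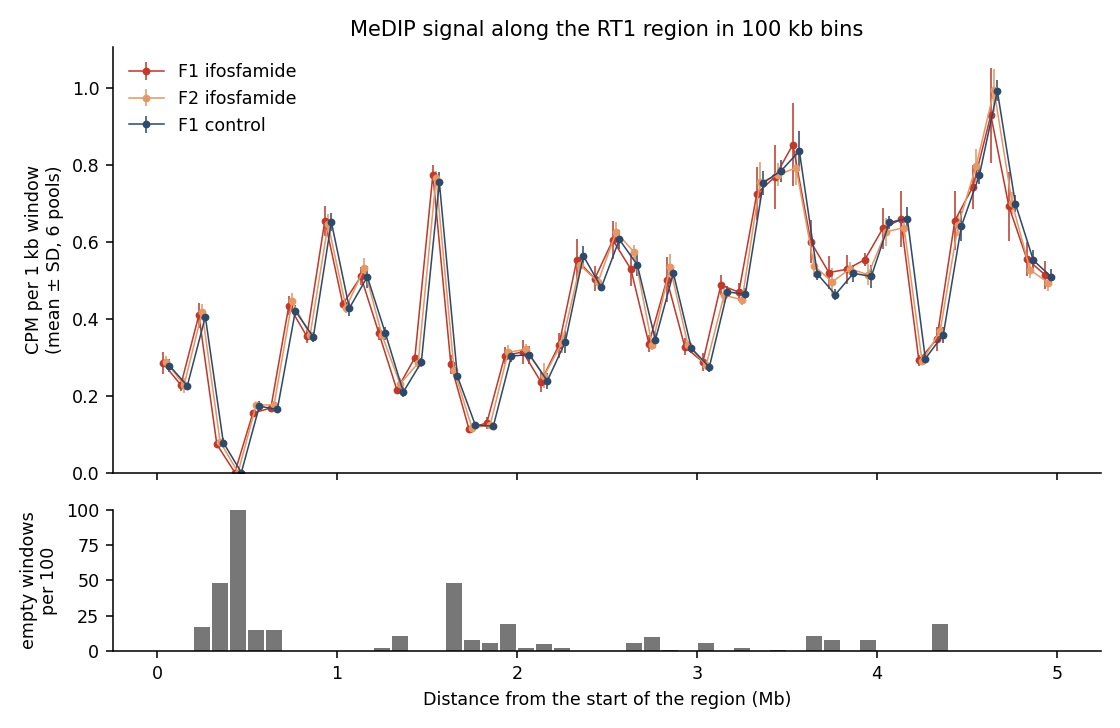
MeDIP signal along the RT1 region. The upper panel plots CPM per 1 kb window (mean ± SD over 6 pools) in 50 bins of 100 kb for F1 ifosfamide, F2 ifosfamide and F1 control, against the distance from the region's start in Mb, and the lower panel plots how many of the 100 windows of a bin had no count in any of the 18 libraries. Signal falls to 0 in 1 bin, peaks in the bin at 5600001 and takes a similar course in the 3 groups.

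Single windows rose well above this level. The strongest, at 3634001 to 3635000, had between 7.40 and 10.3 CPM in F1 ifosfamide pools (median 9.32), 9.90 to 12.9 CPM in F2 ifosfamide pools (median 12.5) and 8.48 to 11.6 CPM in F1 control pools (median 9.86). The window before it, at 3633001, was also among the 5 strongest, with a control mean of 6.11 CPM. The others started at 4765001 (6.42 CPM), 5401001 (5.12 CPM) and 5655001 (5.08 CPM). They ranked 20, 34, 37, 45 and 47 among the 56206 windows of the chromosome, and so within its top 0.0836%, but the rest of the chromosome reached 136 CPM. Among these 5 windows, only that at 5655001 differed between any 2 groups at an adjusted p below 0.05, between F2 and F1 ifosfamide, and it is described below.

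Empty stretches were more common in the region than elsewhere on the chromosome. In F1 control pools 14.7% ± 1.15 of the region's windows had no count, against 8.84% ± 0.991 of the rest (SD, n = 6). The difference was 5.87 percentage points (SE 0.152) and was positive in 6 of 6 pools (exact two-sided sign-flip test, p = 0.03125, the smallest that 6 pools can give). F1 ifosfamide pools had 13.9% ± 0.501 in the region and 7.88% ± 0.360 in the rest. F2 ifosfamide pools had 14.5% ± 0.704 and 8.58% ± 0.701. Windows without a count in any of the 18 libraries numbered 370 in the region (7.40%) and 1852 in the rest (3.62%). These windows add the same amount to the difference in every pool, so the pools are not separate observations of that part. The test over pools cannot weigh it.

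Much of that excess lay in 1 block. From 1352001 to 1504000, 152 successive windows had no count in any library, the longest such run on chromosome 20, where the longest run outside the region was 59 kb. With the longest run of each left out, 4.50% of the region and 3.51% of the rest were empty. The next longest runs in the region were 18 kb at 2953001 to 2971000 and 11 kb at 1630001 to 1641000. The 18 kb run ended at a sharp edge: the window just after it, at 2971001, held 1089 counts over the 18 libraries and is among the windows that differed between the ifosfamide generations. In all, 18 runs of 5 or more windows held 283 of the region's 370 empty windows. They were mostly in the first segments, with 195 empty windows in the first, 94 in the second and 26, 36 and 19 in the others. Within the second segment, the bin at 2600001 to 2700000 held 48 of the 94, of which 47 lay in 6 runs of 5 or more windows. The cause of these stretches was not tested.

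The complex is polymorphic in outbred rats, so windows missing from single pools were counted. For each pool and window an expected count was taken from the group's total and the pool's library size. In the region 13511 values of F1 ifosfamide, 12843 of F2 ifosfamide and 12098 of F1 control pools had at least 10 counts expected, and 0 of them were at 0. The rest of chromosome 20 likewise had 0 at 0, of 144554, 134733 and 125061 such values in these groups in turn. Values below 0.5 of the expected count were 1.34% of those in the region and 1.39% in the rest for F1 ifosfamide. They were 1.04% and 1.12% for F2 ifosfamide, and 1.36% and 1.41% for F1 control. Every pool mixes the DNA of several males.

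Spread between pools was measured as the squared deviation from the expected count divided by that count, which is 1 where counting error acts alone. For windows of 1 to 4 CPM it averaged 2.13 in the region and 1.92 in the rest of chromosome 20 for F1 ifosfamide, 1.42 and 1.25 for F2 ifosfamide, and 1.37 and 1.40 for F1 control. At this signal no group passed the test over pools. The log2 ratio was 0.068 (SE 0.098, exact two-sided sign-flip p = 0.875) for F1 ifosfamide, 0.18 (SE 0.051, exact p = 0.0625) for F2 ifosfamide and -0.024 (SE 0.028, exact p = 0.5) for F1 control. Adjusted over the 3 groups, the exact p values were 0.875, 0.1875 and 0.75. The F2 ifosfamide ratio was above 0 in 5 of 6 pools. In windows above 4 CPM the mean spread was lower in the region in F1 ifosfamide, F2 ifosfamide and F1 control, at log2 ratios of -1.83, -1.08 and -2.08 (exact sign-flip p = 0.03125 each), over 8, 13 and 11 region windows. These are ratios of means, and signal in this class reached 9.15, 11.7 and 9.86 CPM in the region and 164, 126 and 137 CPM in the rest for these groups in turn. Signal was thus not matched in this class, and this measure grows with signal where pools differ beyond counting error. The test over pools holds the same few windows fixed, so it cannot weigh either limit. Median spreads, which were not tested, lay closer together, at 4.15 in the region and 6.45 in the rest for F1 ifosfamide, 2.36 and 3.47 for F2 ifosfamide, and 2.02 and 4.84 for F1 control. At 0.5 to 1 CPM the region had a slightly larger spread than the rest in F1 ifosfamide, at a log2 ratio of 0.073 (exact sign-flip p = 0.03125, not adjusted over settings), and in F2 ifosfamide and F1 control the ratios of 0.013 and -0.021 did not pass.

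The mean for F1 ifosfamide rested on pool 5. Its pools 1 to 6 had spreads of 2.21, 1.86, 1.24, 1.63, 4.50 and 1.32 in the region and 2.25, 1.92, 1.34, 1.61, 3.08 and 1.30 in the rest. Pool 5 was thus the most deviant pool in both, and more so in the region. Without it the mean spread was 1.64 in the region and 1.70 in the rest, and the log2 ratio over pools was -0.053 (exact p = 0.25). In 100 kb bins the median coefficient of variation over F1 ifosfamide pools was 7.75% in the region and 4.89% in the rest, and without pool 5 it was 4.33% and 3.79%. Over F2 ifosfamide pools it was 4.76% and 3.69%, and over F1 control pools 4.49% in both. F1 ifosfamide pools also fell in groups. A chi-square per region window, which grows with the difference between 2 pools, was 1.11 between pools 1 and 2. Between either of these and the group's other pools it was 1.40 to 2.28. Among pools 3, 4 and 6 it was 1.13 to 1.26. The cause was not tested.

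**Figure D2:**
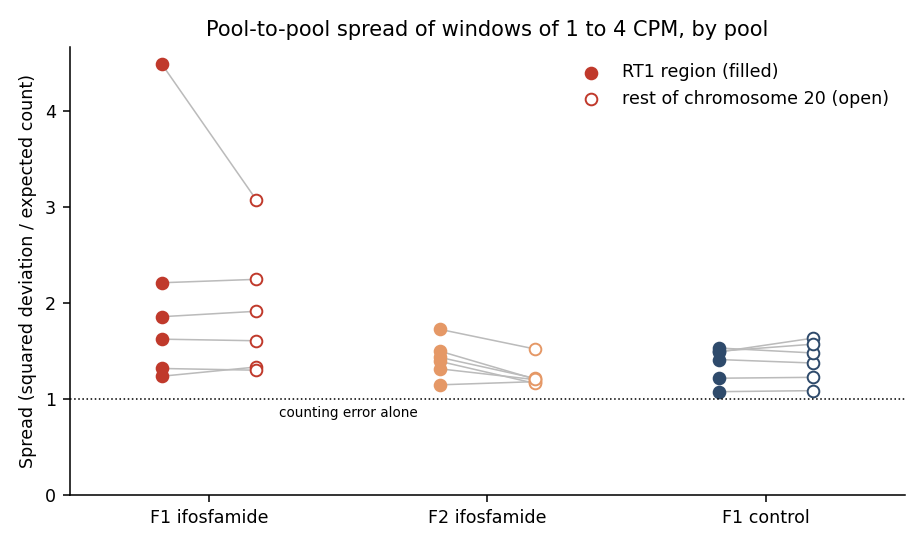
Pool-to-pool spread of windows of 1 to 4 CPM. Each pair of points joined by a line is 1 pool, with the RT1 region filled and the rest of chromosome 20 open, and the dotted line at 1 marks counting error alone. Pool 5 of F1 ifosfamide stands at 4.50 and 3.08, and the other 17 pools lie between 1.08 and 2.25 in both.

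Among windows of at least 1 CPM, the largest spread over F1 control pools was at 5656001 and 5655001, with spreads of 8.50 and 7.29. These neighbours held 2614 and 2643 counts, ran between 3.23 and 7.04 CPM and between 3.46 and 6.80 CPM in control pools, and share reads across their border. The next were 1976001, 2971001, 3022001 and 3476001, with spreads of 6.44 to 5.45. In 5 of these 6 windows, those other than 1976001, control pool 1 was the lowest control pool. At 2971001 it had 0.972 CPM, and control pool 4 had 2.99 CPM. In F1 ifosfamide pools the spreads of the 2 neighbours were 7.11 and 6.98, and in F2 ifosfamide pools 2.36 and 3.08, whereas 1976001 had 1.11 and 1.61 there. The windows at 5655001, 5656001 and 2971001 are also among those that differed between the ifosfamide generations.

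Over the region as a whole, no shift in signal relative to the rest of the chromosome passed the test in either ifosfamide generation. Relative signal, the log2 ratio of the region to the rest within a library, averaged -0.010 ± 0.047 in F1 ifosfamide, 0.027 ± 0.026 in F2 ifosfamide and 0.0063 ± 0.018 in F1 control pools (SD, n = 6 each). F1 ifosfamide minus F1 control came to -0.016 (SE 0.021, exact two-sided permutation test over pools, p = 0.472). F2 ifosfamide minus F1 control came to 0.020 (SE 0.013, exact permutation p = 0.145). F2 ifosfamide minus F1 ifosfamide came to 0.037 (SE 0.022, exact permutation p = 0.141), and adjusted over the 3 comparisons the exact p values were 0.472, 0.218 and 0.218. In fold terms these ratios are 0.989, 1.01 and 1.03. Leaving out the 1% of windows with the highest total count brought the 3 differences to -0.0078, 0.011 and 0.019, and without the first and last 500 kb of the region the first was -0.0070. None of these passed the test.

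Single pools moved those answers. Pool 5 of F1 ifosfamide had a relative signal of 0.080, and the group's other 5 pools lay between -0.050 and -0.0094. Without it, F1 ifosfamide minus F1 control came to -0.035 (exact permutation p = 0.0216) and F2 ifosfamide minus F1 ifosfamide to 0.055 (exact permutation p = 0.013). Pool 1 of F2 ifosfamide was the lowest of its group at -0.018, with the others between 0.018 and 0.049. Without that pool F2 ifosfamide minus F1 control came to 0.029 (exact permutation p = 0.0216). Each of these pools was the extreme of its group on this same measure. The p values are not adjusted over the fits, so they are no test of a shift. Pool 5 was not high throughout. Relative to the mean of the group's other pools it was -0.077 on the log2 scale in the first 1 Mb segment, 0.061 in the second, 0.23 in the third, 0.24 in the next and 0.31 in the last, against 0.084 in the rest of chromosome 20. It was the highest F1 ifosfamide pool in 35 of 49 region bins (71.4%) and in 216 of 513 bins of the rest (42.1%). The same library had the fewest counts of its group, and 39.5% of its chromosome 20 counts lay in the highest 10% of windows, against 38.0% to 38.8% in the other F1 ifosfamide pools. The part of these in its region signal was not tested.

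**Figure D3:**
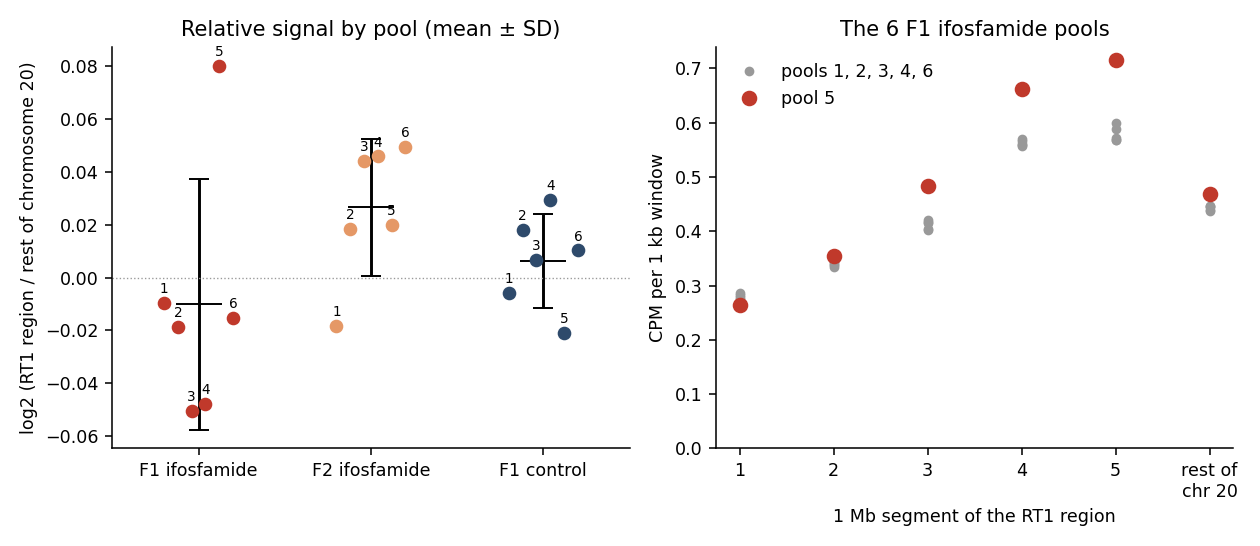
Relative signal by pool. The left panel plots the log2 ratio of the RT1 region to the rest of chromosome 20 in each numbered pool with the group mean ± SD, and the right panel plots CPM per window of the 6 F1 ifosfamide pools in the 5 segments of 1 Mb and in the rest of chromosome 20. Pool 5 is at 0.080 on the left, and on the right it lies below the others in segment 1 and above them elsewhere.

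In sons of treated males 1 window of the region was called, so any comparison of the region's share with that of the genome rests on a single window. Of the region's 5000 windows 2246 passed the filter on low counts, and 1 of them (0.0445%) was called in F1 ifosfamide against F1 control by edgeR's quasi-likelihood test at a Benjamini-Hochberg adjusted p below 0.05 over the genome. Over the genome 580 of 1043656 windows were called (0.0556%), 0.00489% as higher, and in the rest of chromosome 20 16 of 23799 (0.0672%). The called window, at 4926001 to 4927000, had 0.978, 1.14, 0.964, 0.608, 0.677 and 0.486 CPM in F1 ifosfamide pools. F1 control pools had 0.272, 0.572, 0.309, 0.299, 0.412 and 0.309 CPM. All but 1 of the F1 ifosfamide pools were above every control pool, so the groups overlapped. It rose by a log2 fold change of 1.12 (SE 0.23, edgeR adjusted p = 0.0146), and in the authors' deposited table its adjusted p was 0.0458. In F2 ifosfamide pools the window had a median of 0.408 CPM (0.293 to 0.842), near the control, and F2 ifosfamide minus F1 ifosfamide was -0.82 there (SE 0.21, edgeR adjusted p = 0.0214). This last comparison uses again the F1 ifosfamide pools for which the window was picked.

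The call depended on single libraries. It was lost when pool 2 or 3 of F1 ifosfamide or pool 3, 4 or 6 of F1 control was left out, with edgeR adjusted p of 0.0539 to 0.0838. With the number of windows counted per read as a covariate, the log2 fold change was 0.81 (edgeR adjusted p = 0.359), DESeq2 gave the window no adjusted p, and at a minimum count of 30 it was not tested.

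The next smallest p-values belonged to windows that did not pass the threshold. At 4690001 F1 ifosfamide pools had 1.22 to 2.21 CPM (median 1.84), against 0.735 to 1.48 CPM (median 1.05) in F1 control pools, with a log2 fold change of 0.70 (SE 0.16, edgeR adjusted p = 0.0619). This window passed in 3 of 9 other settings and without pool 4 or 6 of F1 ifosfamide or pool 1 of F1 control, at edgeR adjusted p down to 0.0099. At 4668001 the groups did not overlap, with 0.666 to 1.43 CPM in F1 ifosfamide and 0.428 to 0.641 CPM in F1 control pools (log2 fold change 0.78, SE 0.20, edgeR adjusted p = 0.133). Its highest pool was pool 5, without which F1 ifosfamide reached 1.18 CPM and the log2 fold change was 0.66 (edgeR adjusted p = 0.307). At 5416001 they overlapped, with 0.260 to 0.960 CPM in F1 ifosfamide and 0.0778 to 0.348 CPM in F1 control pools (log2 fold change 1.13, SE 0.29, edgeR adjusted p = 0.133). The windows at 4690001 and 4668001 lie in the 100 kb bin that had the smallest p of the region, at 4600001 to 4700000. That bin had 0.600 ± 0.0559 CPM in F1 ifosfamide pools and 0.516 ± 0.0163 CPM in F1 control pools, a log2 fold change of 0.22 (SE 0.05, edgeR adjusted p = 0.105). Its neighbour at 4700001 to 4800000 had 0.520 ± 0.0428 CPM in F1 ifosfamide and 0.463 ± 0.0145 CPM in F1 control pools (log2 fold change 0.17, SE 0.04, edgeR adjusted p = 0.240). Without pool 5 the log2 fold changes of these bins were 0.18 and 0.16 (edgeR adjusted p = 0.0694 and 0.175).

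Of the 49 bins with counts, 0 were called in F1 ifosfamide against F1 control by edgeR, with 18 of 27799 called over the genome (0.0648%), and 6 of the 49 had an unadjusted p below 0.05 (genome 6.80%). By DESeq2, which gave 41 calls over the genome, 1 bin of the region passed. Without pool 4 of F1 ifosfamide 2 bins passed, both higher (23 bins over the genome). Without pool 5 of that group 1 passed, which was lower (28 over the genome).

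**Figure D4:**
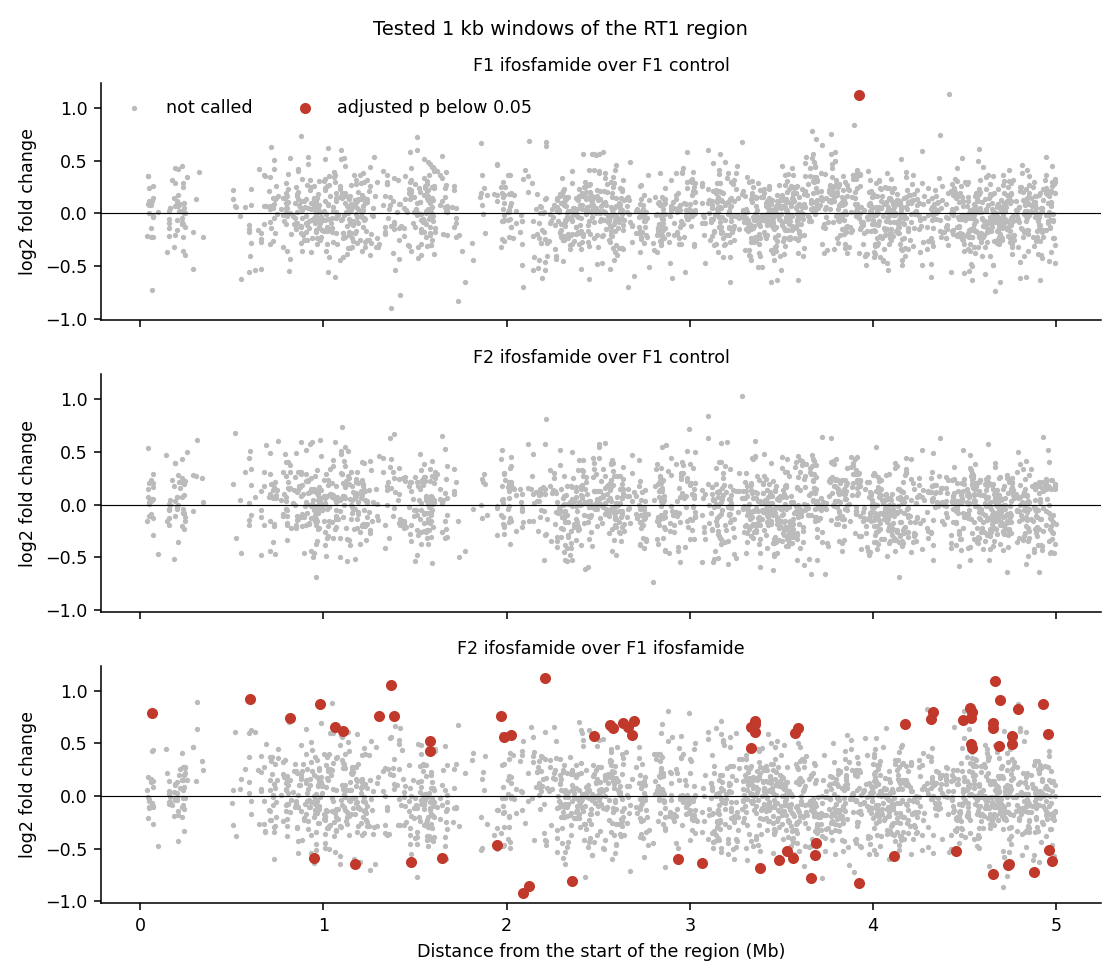
Differences along the region. Each point is 1 tested window, placed by its distance from the region's start in Mb, with its log2 fold change for F1 ifosfamide over F1 control (2246 windows), F2 ifosfamide over F1 control (2061) and F2 ifosfamide over F1 ifosfamide (2260), and large red points are windows with an adjusted p below 0.05. A single window is called at the top, 0 in the middle and 74 at the bottom, on both sides of 0.

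In grandsons of treated males no window of the region passed against F1 controls. By edgeR's quasi-likelihood test 0 of 2061 tested windows were called in F2 ifosfamide against F1 control, with 254 of 919249 called over the genome (0.0276%). At an unadjusted p below 0.05 there were 220 region windows (10.7%), beside 10.1% in the rest of chromosome 20 and 9.24% over the genome. DESeq2 and edgeR's exact test also called 0. The 100 kb bins gave 0 calls of 49 (0.00% over the genome), and the same 0 by DESeq2, with 6 bins at an unadjusted p below 0.05 (genome 11.1%) and a smallest edgeR adjusted p of 0.276.

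The windows with the smallest p-values were 4356001, 4283001 and 4585001. The first had 1.18 to 2.21 CPM (median 1.89) in F2 ifosfamide pools, against 0.913 to 1.41 CPM (median 1.29) in F1 control pools (log2 fold change 0.60, SE 0.15, edgeR adjusted p = 0.0973). Pool 1 of F2 ifosfamide was its lowest, and without that pool the adjusted p was 0.0129. In F1 ifosfamide pools this window had a median of 1.21 CPM, near the control, and F2 ifosfamide minus F1 ifosfamide was 0.60 (SE 0.15, edgeR adjusted p = 0.0161). That comparison uses again the F2 ifosfamide pools for which the window was picked. At 4283001 the pools did not overlap, with 0.380 to 0.668 CPM in F2 ifosfamide and 0.181 to 0.311 CPM in F1 control (log2 fold change 1.03, SE 0.27, edgeR adjusted p = 0.126). At 4585001 F2 ifosfamide pools had 1.25 to 1.74 CPM and F1 control pools 1.51 to 2.88 CPM (log2 fold change -0.52, SE 0.14, edgeR adjusted p = 0.144). Without F1 control pool 6 the adjusted p of that window was 0.0409. Leaving out pool 1 of F2 ifosfamide gave 2 called windows in the region, with 1434 over the genome. Leaving out pool 6 of F1 control gave 1, with 716 over the genome.

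For F1 ifosfamide over F1 control the median log2 fold change of all tested windows was 0.0046 in the region and 0.019 in the rest of chromosome 20. For F2 ifosfamide over F1 control it was 0.00058 in the region and -0.014 in the rest. These comparisons share the 6 F1 control pools.

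The ifosfamide generations differed from each other in more windows. In F2 ifosfamide against F1 ifosfamide 74 of 2260 tested windows were called by edgeR's quasi-likelihood test (3.27%), with 2.01% called over the genome (21359 of 1062540) and 2.24% in the rest of chromosome 20 (540 of 24122). Of the 74, 48 were higher in F2 ifosfamide (genome 1.18%) and 26 were lower (genome 0.832%). The higher ones had a median log2 fold change of 0.69, and the lower ones -0.62. The pools did not overlap in 25 of the 74, but these windows were chosen for a small p. The share without overlap was not counted for other windows of the genome. The 74 called windows formed 68 separate runs, and the 5 segments held 5, 13, 13, 16 and 27 of them. The last segment also had the most tested windows (637, against 245 in the first). Without single pools the count ran from 29 to 111, and it was 57 without pool 5 of F1 ifosfamide. It was below 50 without pool 3, 4 or 6 of F1 ifosfamide (29, 43 and 46) or without pool 2, 3, 4, 5 or 6 of F2 ifosfamide (47, 32, 33, 46 and 42), 37 by DESeq2 and 130 with windows per read as a covariate. Calls over the genome moved as well, to 8298 in the fit with 29 and 35870 in the fit with 111. DESeq2 gave 8210 over the genome and the covariate fit 42685.

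The 2 neighbouring windows at 5655001 and 5656001, in the strongest bin of the region, were both among the 5 higher windows with the smallest p-values. At 5655001 F2 ifosfamide pools had 4.55, 5.98, 6.36, 6.61, 5.97 and 5.61 CPM. F1 ifosfamide pools had 4.64, 4.57, 3.02, 2.89, 3.66 and 2.77 CPM. The groups overlapped only through the lowest F2 ifosfamide pool and the 2 highest F1 ifosfamide pools. The log2 fold change was 0.69 (SE 0.12, edgeR adjusted p = 0.000281). F1 control pools ran from 3.46 to 6.80 CPM and spanned most of both, and neither ifosfamide group passed the test against them there (edgeR adjusted p = 0.217 for F1 ifosfamide and 0.626 for F2 ifosfamide).

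A window only 2 kb away moved the other way. At 5653001 F2 ifosfamide pools had 0.900 to 1.44 CPM (median 1.19), all below the F1 ifosfamide pools at 1.56 to 3.03 CPM (median 1.70), a log2 fold change of -0.74 (SE 0.15, edgeR adjusted p = 0.00279). Pool 5 was the highest F1 ifosfamide pool in this window, and without it the log2 fold change was -0.60 (edgeR adjusted p = 0.0196). Control pools ran from 1.07 to 1.97 CPM and overlapped both.

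At the edge of the 18 kb empty run, window 2971001 had 1.92, 2.60, 2.85, 3.18, 2.38 and 2.49 CPM in F2 ifosfamide pools. F1 ifosfamide pools had 1.84, 1.84, 1.09, 1.24, 1.47 and 1.52 CPM. Every F2 ifosfamide pool was above every F1 ifosfamide pool, and F1 control pools ran across both, from 0.972 to 2.99 CPM. The log2 fold change was 0.76 (SE 0.14, edgeR adjusted p = 0.000455).

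At 2 further higher windows there was no overlap between F2 and F1 ifosfamide pools. At 5695001 F2 ifosfamide pools had 1.19 to 1.79 CPM, against 0.435 to 1.16 CPM in F1 ifosfamide pools (log2 fold change 0.92, SE 0.17, edgeR adjusted p = 0.000647). At 5531001 F2 ifosfamide pools had 1.15 to 2.03 CPM and F1 ifosfamide pools 0.638 to 0.985 CPM (log2 fold change 0.84, SE 0.16, edgeR adjusted p = 0.00117). F1 control pools overlapped both ifosfamide groups, with 0.972 to 1.39 CPM at 5695001 and 0.657 to 1.28 CPM at 5531001.

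Of the 5 named lower windows, 4686001 had the strongest signal. F2 ifosfamide pools had 3.15 to 4.33 CPM (median 3.80), below all F1 ifosfamide pools at 4.66 to 6.45 CPM (median 5.48), a log2 fold change of -0.56 (SE 0.12, edgeR adjusted p = 0.00332). F1 control pools, at 3.33 to 4.68 CPM (median 3.99), were close to the F2 ifosfamide pools. This window lies in the bin of 4600001 to 4700000, which had the smallest p in F1 ifosfamide against F1 control. The remaining named windows were 2175001, 5735001 and 4563001, with log2 fold changes of -0.64, -0.65 and -0.59 (edgeR adjusted p = 0.00804, 0.0102 and 0.0156). The calls at these windows were lost without pool 3 of F1 ifosfamide at 2175001 (edgeR adjusted p = 0.051), pool 3 of F2 ifosfamide at 5735001 (0.065), and pool 4 of F1 ifosfamide or pool 2 or 3 of F2 ifosfamide at 4563001 (0.0551 to 0.0757). The other 7 named windows of this comparison stayed past the threshold whichever pool was left out.

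**Figure D5:**
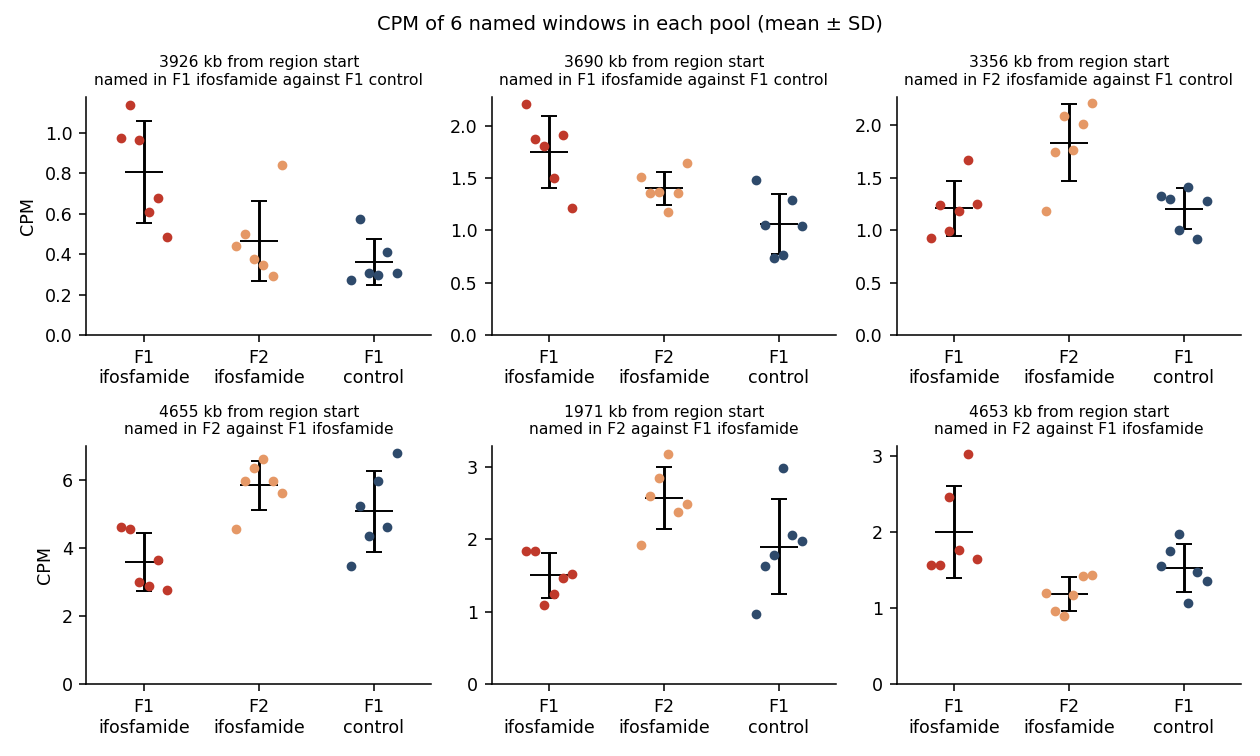
CPM in every pool at 6 named windows, 3926, 3690, 3356, 4655, 1971 and 4653 kb from the region's start, with points for pools and the mean ± SD for F1 ifosfamide, F2 ifosfamide and F1 control. Groups overlap at 3926 kb, where all but 1 F1 ifosfamide pools lie above the controls, and F2 and F1 ifosfamide pools are apart at 1971 and 4653 kb, where the controls overlap both.

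At 100 kb, 1 of 49 bins was called in F2 ifosfamide against F1 ifosfamide, with 948 of 27799 over the genome (3.41%). It was the bin at 1500001 to 1600000, which holds the end of the longest empty run, with 0.175 ± 0.00911 CPM in F2 ifosfamide and 0.154 ± 0.00908 CPM in F1 ifosfamide pools. Its log2 fold change was 0.17 (SE 0.05, edgeR adjusted p = 0.041). F1 control pools had 0.172 ± 0.0130 CPM. The call was lost in 10 of the 12 fits without 1 pool, those other than without pool 1 or 2 of F1 ifosfamide, at edgeR adjusted p of 0.0531 to 0.0858. Without pool 5 of F1 ifosfamide, 5 other bins passed, all higher. The bin at 4600001 to 4700000 had a log2 fold change of -0.16 (SE 0.05, edgeR adjusted p = 0.0619) and did not pass. Without pool 5 of F1 ifosfamide its log2 fold change was -0.12 (edgeR adjusted p = 0.0764).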

How the data were processed

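Sperm DNA was pooled, sonicated and pulled down, per the labels' protocols, and FastQC, Trimmomatic, Bowtie2, SAMtools and edgeR with Rnor_6.0 are named in the submitters' processing notes; no versions are recorded there. The authors deposited read counts per 1 kb window, not normalized, and 18 of the 34 labelled libraries were used; the other 16 were not analysed here. The RPKM values deposited beside them, rounded by the authors, served only to find how many windows a read was counted in. Log2 fold changes and p-values in the authors' deposited table come from their own edgeR comparison, per the file headers, and are printed only where that table is named.

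Counts were scaled by TMM, windows were filtered by edgeR's expression rule (minimum count 10), and each pair of groups was fitted with the quasi-likelihood test over all windows (edgeR 4.0.16, R 4.3.3), with Benjamini-Hochberg adjustment over the genome and a threshold of 0.05. Bins of 100 kb were fitted likewise. DESeq2 1.42.0 and edgeR's exact test were alternatives, with other filters, scalings, bin sizes, a replicate block, windows per read as a covariate (chosen after seeing the data) and each pool left out. Region values were tested over pools by exact tests (SciPy 1.17.1). The scripts were tested on simulated data. Total counts per library of 23336048 to 39440265 set the precision, and limits cover counting error only. Same-numbered pools had correlations of -0.19 to 0.082 between groups, so numbers were not taken to pair pools.

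The region, lists and rules were chosen with earlier results of these data known. Windows were named by rule: all called windows up to 10, otherwise the 5 higher and 5 lower with the smallest p; the 3 smallest p where fewer than 5 were called; the 5 strongest windows, 6 of largest control spread and 3 longest empty runs; and, of bins, those called or with the smallest p and the 2 highest and 2 lowest. RefSeq GRCr8 gave gene names only.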

Additional observations from a re-analysis of the deposited data

Results flagged for a closer look

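Pool 5 of F1 ifosfamide lay far from the group's other pools in 3 measures of the region: its log2 ratio of region to rest was 0.080, its log2 ratio of spread was 0.55 and its signal was 0.496 CPM per window. At window 4926001 pool 6 of F2 ifosfamide had 0.842 CPM, far above the rest of its group. At window 5416001 pool 3 of F2 ifosfamide had 0.610 CPM, and in the bin at 2600001 the highest F2 ifosfamide pool had 0.290 CPM. These were 6 far pools among 96 groups of 6 pools examined, and chance alone gives about 1 in 20.

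Among the 7 windows named for a small p against F1 control, F2 and F1 ifosfamide pools differed at 2. That test uses again the ifosfamide pools for which the windows were picked, so it is not independent of the choice. It called 74 of 2260 tested windows of the region in all (3.27%, genome 2.01%). At 4926001 F2 ifosfamide minus F1 ifosfamide was -0.82 on the log2 scale, and at 4356001 it was 0.60 (edgeR's quasi-likelihood test with Benjamini-Hochberg adjustment, adjusted p = 0.0214 and 0.0161).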

How the results depend on the processing

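For F1 ifosfamide against F1 control, the 1 called window became 2 with all 3 groups in 1 fit or with edgeR's exact test, 3 with no filter on low counts and 0 with the windows-per-read covariate, DESeq2's Wald test or a minimum count of 30; leaving out 1 pool gave 0 to 5. The 0 called bins became 1 in bins of 50 kb or by DESeq2, and leaving out 1 pool gave 0 to 2. For F2 ifosfamide against F1 control, leaving out 1 pool gave 0 to 2 windows. With 1 pool left out, windows called over the genome ran from 145 to 2015 for F1 ifosfamide against F1 control. They ran from 65 to 1434 for F2 ifosfamide against F1 control and from 8298 to 35870 for F2 against F1 ifosfamide. For F2 ifosfamide against F1 ifosfamide, the 74 windows became 45 with the replicate block (all among the 74), 130 with the covariate (65 of the 74) and 37 by DESeq2 (36 of the 74), and 29 to 111 with 1 pool left out. With F1 ifosfamide pools 1 and 2 counted as 1 sample they became 86 (73 of the 74), with 24536 over the genome. In that setting F1 ifosfamide against F1 control kept 1 called window. The 1 bin became 3 at 50 kb, 0 with the replicate block (edgeR adjusted p = 0.0731) and 0 to 5 with 1 pool left out. In the region the block changed no other count of calls. Over the genome it gave 350 windows for F1 ifosfamide against F1 control, 621 for F2 ifosfamide against F1 control and 13084 for F2 against F1 ifosfamide. The signal level was 0.15 in windows with a count in every library and -0.0016 without the first and last 500 kb (exact sign-flip p = 0.8125). The direction of the 0.15 was set by the filter, which drops a larger share of the region's windows. The difference in share at 0 ran from 5.77 to 5.98 points with 1 control pool left out, at an exact p of 0.0625, the smallest 5 pools can give. Windows empty in all 18 libraries add the same amount to this difference in every pool. With 1 pool left out, relative signal ran from -0.035 to -0.0084 for F1 ifosfamide against F1 control, from 0.015 to 0.029 for F2 ifosfamide against F1 control and from 0.029 to 0.055 for F2 against F1 ifosfamide. Above 4 CPM, where signal was not matched, the spread ratio was -1.83, -1.08 and -2.08 in F1 ifosfamide, F2 ifosfamide and F1 control. For F1 ifosfamide it was 0.073 at 0.5 to 1 CPM (exact sign-flip p = 0.03125, the smallest 6 pools can give) and -0.053 to 0.12 with 1 pool left out. For F2 ifosfamide it was 0.19 without the 1% of windows of largest spread (exact sign-flip p = 0.03125). The causes were not tested. Leave-one-out fits took the dispersion trend from 1 in 4 windows, which on all 12 F1 pools also gave 580 calls over the genome.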
